A study of Mus musculus with 2 samples.

Results

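The smooth muscle contractile genes described here are Acta2, Actg2, Tagln, Cnn1, Cnn2, Tpm1, Tpm2, Myh11, Myl9 and Des. They were chosen by name as the parts of the smooth muscle contractile machinery and of its intermediate filament, and their UMI counts (unique molecular identifiers, 1 for each RNA molecule caught in a droplet) were read from both libraries by Ensembl identifier. These are 10 of the 30406 genes that both libraries list. All 10 had UMIs in both libraries.

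The study sequenced RNA of liver cells in droplets, with 1 library of healthy mice and 1 of mice that had been given carbon tetrachloride (CCl4), a solvent that hepatocytes turn into a toxic product and that scars the liver when it is given repeatedly. All mice were Col1a2-CreER: Rosa26-tdTomato animals on a C57BL/6 background, in which a tamoxifen-inducible Cre under the Col1a2 promoter can label cells that use this collagen gene with a red fluorescent protein. The tdTomato transcript is not among the listed genes, so the label was not measured here. In both groups the liver was digested with pronase and collagenase, the cells were purified on a Nycodenz gradient, and the methods of the study add a depletion of CD45-positive cells with magnetic beads. The labels give neither the number of animals in a library nor the age of the mice. For its injury model the paper states an age range at the start and the use of both sexes. It describes the CCl4 injury as chronic, with injections repeated over weeks. With 1 library per group no difference below has a replicate check, no test was made, and injury, library and software version cannot be told apart. Square brackets hold 95% intervals, which reflect counting error alone.

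Smooth muscle cells contract when myosin pulls on actin filaments that are anchored to the cell surface and to a scaffold of desmin. Acta2 and Actg2 encode the 2 smooth muscle actins, Tagln, Cnn1 and Cnn2 encode transgelin and calponins, which bind actin, and Tpm1 and Tpm2 encode tropomyosins, which lie along the actin filament. Myh11 encodes the smooth muscle myosin heavy chain, Myl9 a myosin regulatory light chain and Des the intermediate filament protein desmin. In the liver the complete set is a property of vascular smooth muscle, while hepatic stellate cells contain desmin and gain Acta2 when they turn into myofibroblasts in fibrosis. Tpm1, Cnn2 and other actin-binding genes are also used outside muscle.

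Many contractile genes carry a CArG box in their promoter, the element bound by serum response factor, which consists of CC, a stretch of A and T, and GG. RefSeq promoter windows (build GRCm38.p6) were at hand for 7 of the 10 members: Acta2, Cnn1, Cnn2, Tpm1, Tpm2, Myl9 and Des. In the 250 bases before the start, Cnn2 and Myl9 had a strict box (6 A or T bases), and Acta2 and Myl9 had boxes in which 1 of the 6 bases was G or C. The pattern reads the same on both strands, so each match counts for both. Of 32851 promoters, 1.47% held a strict box and 8.59% a box when 1 G or C was allowed. The windows of Cnn1, Tpm1, Tpm2 and Des did not hold these letters. The 200 bases upstream of the start are shown for the 3 promoters with a match, since these members differ in where their RNA was found below, and the capitals mark the boxes. They lie at chr19:34255374-34255573 on the minus strand (Acta2), chr10:79988400-79988599 on the plus strand (Cnn2) and chr2:156775264-156775463 on the plus strand (Myl9).
Acta2: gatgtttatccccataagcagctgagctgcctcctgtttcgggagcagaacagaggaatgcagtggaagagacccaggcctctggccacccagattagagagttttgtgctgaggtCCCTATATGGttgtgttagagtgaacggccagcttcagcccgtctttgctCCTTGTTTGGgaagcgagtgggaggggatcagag
Cnn2: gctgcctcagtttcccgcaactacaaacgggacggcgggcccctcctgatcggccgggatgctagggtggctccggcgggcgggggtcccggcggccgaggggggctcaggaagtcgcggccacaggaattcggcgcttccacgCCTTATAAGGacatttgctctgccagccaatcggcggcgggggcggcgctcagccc
Myl9: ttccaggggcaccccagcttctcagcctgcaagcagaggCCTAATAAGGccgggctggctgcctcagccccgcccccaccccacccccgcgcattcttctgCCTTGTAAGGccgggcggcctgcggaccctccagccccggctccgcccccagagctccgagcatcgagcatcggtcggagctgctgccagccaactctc
The boxes of Acta2 began at positions -84 and -34 from the start, the box of Cnn2 at -56, and those of Myl9 at -161 (strict) and -99. A match describes the letters in this window and is not a measured binding site.

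Filtering left 5602 healthy and 7314 CCl4 cells, whose median totals were 6783.5 and 11876 UMIs, and 10 cell barcodes occurred in both libraries. Clustering without the 10 members gave 22 clusters, which were named from marker genes. The healthy library held 3509 endothelial-like, 1274 cholangiocyte-like, 235 mesothelial-like, 191 hepatocyte-like, 19 immune-like and 12 mesenchymal-like cells, and 362 cells stayed unnamed. The CCl4 library held 3613 mesenchymal-like, 1563 mesothelial-like, 380 immune-like and 1712 unnamed cells, and between 10 and 23 cells of each of the other classes. Most named classes therefore came from 1 library. Of the unnamed CCl4 cells 635 lay in cluster 4, which had 11 endothelial markers but 4 haemoglobin genes among its leading genes. With a mitochondrial limit of 10% a cluster of 582 CCl4 and 31 healthy cells, led by Esm1, was named endothelial-like. The count of CCl4 endothelial-like cells thus depends on the setting. The mesothelial-like class lay in cluster 6 (229 healthy cells and no CCl4 cell), cluster 17 (960 CCl4 and 6 healthy cells) and cluster 20 (603 CCl4 cells). Cluster 20 was named from 3 of the 12 mesothelial markers, and its marker levels went partly against the name: mesothelial markers summed to 4315 CPM and mesenchymal markers to 15444, against 16540 and 6945 in cluster 17. When mesenchymal cells were subclustered, 555 cells of cluster 20 fell into 2 subclusters named from portal fibroblast markers and 830 of cluster 17 into 2 mesothelial-like ones, so values of cluster 17 alone are given where the clusters differ. The 10 members took 0.0308% of the healthy UMIs and 0.256% of the CCl4 UMIs. UMIs are tags of transcript ends that are not scaled to gene length, so a level in CPM (UMIs of a gene per 1000000 UMIs) is compared between groups of cells for 1 gene. Acta2 and Actg2 both encode smooth muscle actins, and a split of reads between them was not tested.

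The contractile genes were concentrated in the mesenchymal-like cells of the CCl4 library, which held 83.4% of that library's member UMIs in 49.4% of its cells. Among the named classes of both libraries, 9 of the 10 members had their highest level there, against 9.33% of all genes with at least 10 UMIs. Cnn2 was the exception.

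Acta2 was at 714 CPM [707, 722] in these mesenchymal-like cells, 128 [124, 132] in mesothelial-like cells and 24.5 [18.0, 32.6] in immune-like cells of the same library. Immune cells are not known for smooth muscle actin, and their level is given as a reference. It may hold free RNA and mixed droplets, which were not measured apart, and without the 16 immune-like cells that have 20 or more UMIs of the collagen and matrix genes used below it was 18.8 [12.8, 26.5]. In the healthy library Acta2 was at 92.1 CPM [82.7, 102] in mesothelial-like and 1.20 [0.767, 1.78] in endothelial-like cells, and it was not counted in the hepatocyte-like and the 12 mesenchymal-like cells. Actg2, the enteric smooth muscle actin, was rare: 326 UMIs (7.0 CPM [6.26, 7.80]) in CCl4 mesenchymal-like cells and 2 UMIs in mesothelial-like cells.

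Among the actin-binding members, Tagln separated mesenchymal-like from mesothelial-like cells by the widest margin. It was at 1535 CPM [1524, 1546] in the former and 35.0 [32.9, 37.2] in the latter of the CCl4 library, where immune-like cells had 41.2 [32.6, 51.4], and 24.6 [17.8, 33.3] without those 16 cells. Cnn1, the calponin of mature smooth muscle, had 66 UMIs (1.42 CPM [1.10, 1.80]) in mesenchymal-like cells. Cnn2 behaved differently from the other 9 members. It was at 137 CPM [133, 140] in CCl4 mesenchymal-like, 170 [152, 190] in CCl4 immune-like and 143 [138, 148] in healthy endothelial-like cells, and its highest class was the neutrophil-like cluster of 67 CCl4 cells, at 381 CPM [303, 474]. Tpm1 was the most widely spread member, at 719 CPM [711, 727] in CCl4 mesenchymal-like, 484 [462, 506] in healthy mesothelial-like, 94.9 [90.5, 99.6] in healthy cholangiocyte-like and 91.4 [87.2, 95.7] in healthy endothelial-like cells. Tpm2 was at 316 CPM [311, 321] in CCl4 mesenchymal-like and 211 [206, 217] in CCl4 mesothelial-like cells but at 24.4 [19.8, 29.9] or less in the named healthy classes that have at least 50 cells.

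Among the named classes with at least 50 cells the motor genes Myh11 and Myl9 were low outside mesenchymal-like cells, and desmin differed between the 2 mesothelial-like clusters of the CCl4 library. Myh11 was at 64.2 CPM [61.9, 66.5] in CCl4 mesenchymal-like cells, 1.32 [0.931, 1.81] in mesothelial-like and 3.65 [1.47, 7.52] in immune-like cells. Myl9 was at 266 [261, 271], 11.4 [10.2, 12.7] and 15.6 [10.6, 22.3] CPM in these 3 classes. The 13 CCl4 endothelial-like cells had 10 Myl9 UMIs in 4 cells (127 CPM [61.0, 234]). Of these 13 cells 5 had 20 or more UMIs of the collagen and matrix genes, and the 13 held 48 Tagln and 28 Acta2 UMIs. The part of mixed droplets in these counts was not tested. Des was at 248 [243, 252], 65.4 [62.5, 68.5] and 13.0 [8.44, 19.2] CPM, and the mesothelial-like value joins 11.7 [10.1, 13.5] in cluster 17 and 138 [132, 145] in cluster 20. The mesothelial-like level of Tagln, Myh11 and Myl9 was thus not above the immune-like one, whereas that of Acta2, Tpm1 and Tpm2 was, in cluster 17 alone as well (116, 285 and 194 CPM), and that of Des was over the class and in cluster 20 but not in cluster 17. Without the 16 immune-like cells the order turned for Tagln and for Myl9 (8.80 CPM [4.92, 14.5]), with overlapping intervals for both over the class. In cluster 17 alone Tagln was at 37.3 CPM [34.4, 40.4], above that immune-like interval (24.6 [17.8, 33.3]). Myl9 was at 15.1 [13.3, 17.1] there, with an overlap. Cluster 20 had 31.8 [28.7, 35.1] CPM of Tagln and 6.27 [4.95, 7.83] of Myl9. In the CCl4 library 9 of the 10 members were at least 2-fold higher in mesenchymal-like than in mesothelial-like cells, where 17.2% of all tested genes were, and Tpm2 was the exception.

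Because deeper cells show a UMI more often, shares of cells were compared at 2000 UMIs per cell. At that depth Tagln was detected in 62.8% of CCl4 mesenchymal-like cells, 4.76% of mesothelial-like cells and 6.29% of immune-like cells. The order for Acta2 was 30.7%, 15.6% and 6.64%, and for Des 34.8%, 7.71% and 2.45%. In cluster 17 alone Acta2 was found in 14.2% of cells and Tagln in 5.29%, but Des in 1.62% [0.908, 2.65], against 17.7% [14.7, 21.1] in cluster 20. Both tropomyosins were found in mesothelial-like cells far above the immune-like share, Tpm2 in 36.5%, 28.4% and 3.85% of the 3 classes and Tpm1 in 64.6%, 36.0% and 9.79%. For Cnn2 the order turned, with 20.2%, 13.2% and 32.5%. A share of mesothelial-like cells at or below the immune-like share, as for Tagln, is not read as expression by itself, and the part of free RNA in it was not tested. The 16 immune-like cells with collagen and matrix UMIs were not taken out of these shares. In the CCl4 cells of the unnamed cluster 4 Tagln was found in 3.04% [1.78, 4.82], against 5.29% [3.94, 6.93] in cluster 17, so the reading depends on the reference.

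Within the mesenchymal-like class of the CCl4 library the clusters differed by several fold in Acta2 and less in Myh11. Cluster 10, led by Cxcl14, and cluster 21, led by cell cycle genes, had 1190 and 1037 CPM of Acta2. Cluster 11, led by Dpep1 and Thbs4, had 844 CPM, and clusters 16 and 13, led by the stellate cell genes Angptl6, Colec10, Reln and Vipr1, had 298 and 263 CPM. For Tagln cluster 10 was again highest, with 2240 CPM, followed by 1596 in cluster 11, 1414 in cluster 21, 1182 in cluster 16 and 762 in cluster 13. For Myh11 cluster 11 was highest at 82.5 CPM, followed by 69.3 in cluster 10 and 54.2, 44.5 and 44.0 in clusters 13, 21 and 16. Cluster 13 was shallow, with a median of 2911.5 UMIs per cell against 12721.5 to 14199 in the other 4. Its name is also mixed. When mesenchymal cells were subclustered, 91 of its cells fell into a subcluster of 108 cells named from 13 endothelial markers. These cells are kept in the mesenchymal-like values.

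In the healthy library 7 of the 10 members had most of their UMIs in very few cells. An unnamed cluster of 478 droplets (cluster 8), held 11 healthy cells. Its 10 leading genes were Pln, Aspn, Myh11, Pcp4l1, Actg2, Cox4i2 and 4 haemoglobin genes, which mark erythroid cells, and the erythroid markers were at 0 in the healthy cells. These are 0.196% of the healthy cells and 0.164% of the healthy UMIs, and they held 3011 of the 14167 healthy member UMIs, where endothelial-like cells held 34.2%. They held 281 of the 286 healthy Myh11 UMIs (98.3%), 313 of 365 Myl9 UMIs (85.8%), 26 of 31 Cnn1 UMIs (83.9%) and 970 of 1354 Acta2 UMIs (71.6%). For Des the share was 68.5% (115 of 168), for Tagln 67.5% (701 of 1038), for Actg2 66.7% (14 of 21) and for Tpm2 40.4% (345 of 854). Tpm1 and Cnn2 were different, since these cells held 3.55% of the Tpm1 UMIs and 0.424% of the Cnn2 UMIs.

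In 8 of the 11 cells Acta2 reached at least 20 UMIs, and these 8 had UMIs of at least 9 members, with Actg2, Cnn1 and Cnn2 each at 0 in 1 of them. Acta2 ranged from 32 to 206 UMIs per cell (median 126), Tagln from 17 to 139 (median 96), Myh11 from 20 to 59 (median 30.5), Myl9 from 11 to 62, Tpm2 from 10 to 70 and Des from 4 to 24. Cnn1 ranged from 0 to 7. The 10 members together made up 2.14% to 6.99% of the UMIs of a cell, at totals of 5068 to 10316 UMIs. Of the other 3 cells, 2 were at 0 for both Acta2 and Myh11 with 838 and 2003 UMIs in all, and the last had 0 Acta2 and 4 Myh11 UMIs. Over all 11 cells the levels were 12837 CPM for Acta2, 9277 for Tagln, 4566 for Tpm2, 4142 for Myl9, 3719 for Myh11, 3057 for Tpm1, 1522 for Des, 344 for Cnn1, 199 for Cnn2 and 185 for Actg2. All 15 genes of a list of other smooth muscle and pericyte markers had a UMI there (512 UMIs, 6776 CPM), and macrophage, neutrophil, erythroid and B cell markers were at 0. Of the other lists, 11 of 12 mesenchymal markers (2025 CPM), 9 of 12 hepatocyte (979 CPM), 8 of 14 endothelial (212 CPM), 3 of 12 cholangiocyte (265 CPM), 1 of 10 dendritic (92.6 CPM), 1 of 12 mesothelial and 1 of 11 T and NK cell markers (13.2 CPM each) had UMIs, and the part of such RNA in the levels was not tested. None of the 11 cells reached the 20 UMIs of Col1a1, Col3a1, Dcn and Bgn that define mesenchymal cells below, with 2 to 14 UMIs of these 4 genes per cell. The CCl4 droplets of the same cluster numbered 467 with a median of only 898 UMIs, and had 1741 CPM of Acta2, 2316 of Tagln, 297 of Myh11 and 65.4 of Actg2.

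**Figure D1:**
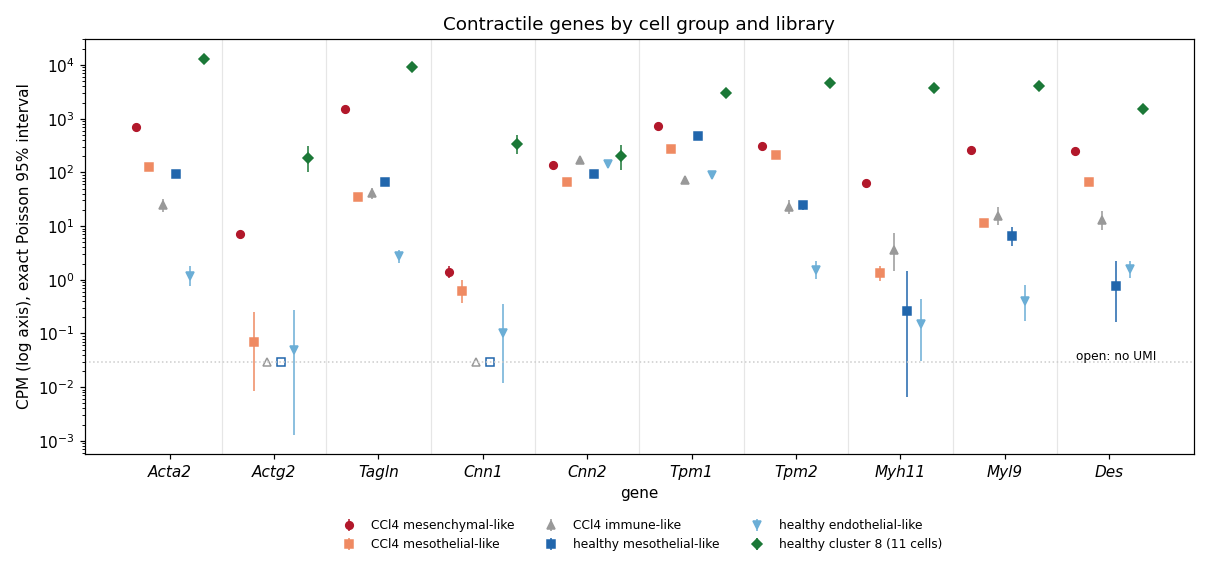
Level of each of the 10 members in 6 groups of cells, in CPM on a log axis with exact Poisson 95% intervals, where open symbols at the bottom stand for 0 UMIs. The 11 healthy cells of cluster 8 are highest of the 6 groups for all members (Acta2 12837 CPM), with overlapping intervals for Cnn2, and among the named classes the CCl4 mesenchymal-like cells are highest for all members but Cnn2.

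**Figure D2:**
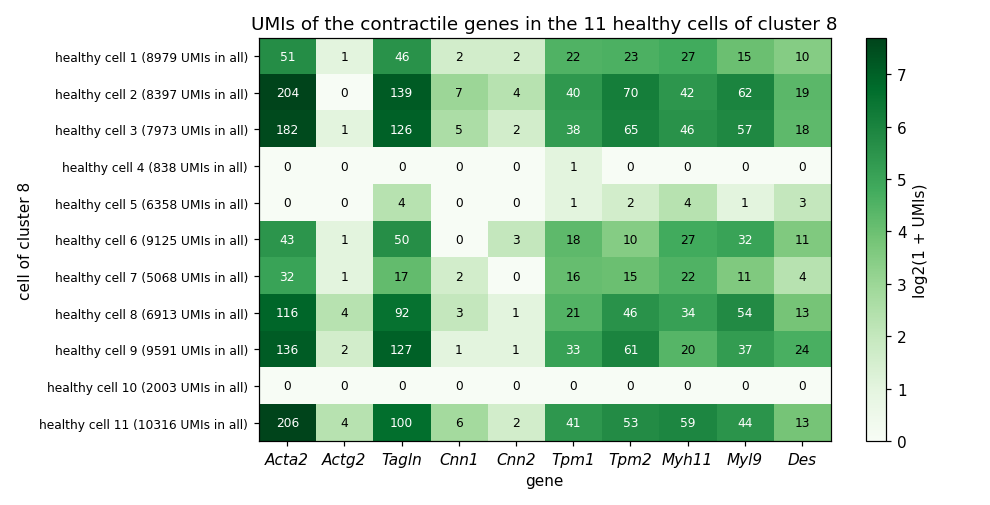
UMIs of the 10 members in each of the 11 healthy cells of cluster 8, printed in the squares and coloured as log2(1 + UMIs), with the total UMIs of each cell on the vertical axis. In 8 cells Acta2 has 32 to 206 UMIs and Myh11 20 to 59, and the other 3 cells have 0 Acta2 UMIs.

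Whole-library ratios of the members depended on those 11 cells. Over all cells, the CCl4 library had 8 of the 10 members at least 2-fold higher with an interval above 1, where 16.9% of all tested genes were, and 9 members without the 11 healthy cells. Myh11 was 6.11-fold [5.41, 6.92] higher in the CCl4 library over all cells and 349-fold [149, 1075] higher when the 11 healthy cells were left out, which leaves 5 healthy UMIs. Acta2 went from 15.4-fold [14.6, 16.3] to 54.4 [49.2, 60.3], Tagln from 38.4 [36.1, 40.8] to 118 [106, 132], Myl9 from 19.3 [17.4, 21.4] to 135 [103, 181] and Des from 44.7 [38.4, 52.4] to 141 [108, 189]. Cnn1 had the smallest ratio after Cnn2, 1.65 [1.09, 2.56], and 10.2 [4.22, 32.1] without these cells. Tpm1 (3.57 and 3.69) and Cnn2 (1.5 and 1.51) hardly moved. Tpm2 was 14.1-fold higher, and 23.6-fold without the 11 cells. A second healthy group bore on the tropomyosins: 52 cells of an unnamed cluster, with a median of 1976.5 UMIs, held 734 of the 6513 Tpm1 UMIs (11.3%) in 22 cells and 301 of the 854 Tpm2 UMIs (35.2%) in 14 cells. In such sums over a library, fewer cells of a type and less RNA per cell cannot be told apart.

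The mix of members also differed. Healthy cells of cluster 8 had 0.723 Tagln UMIs for each Acta2 UMI, and CCl4 mesenchymal-like cells had 2.15. Myh11 came to 29.0 UMIs per 100 Acta2 UMIs in the former and 8.99 in the latter. Tpm2 outnumbered Tpm1 in the healthy cells (1.49 UMIs per Tpm1 UMI) but not in CCl4 mesenchymal-like cells (0.440). Mesothelial-like cells had 0.274 Tagln UMIs per Acta2 UMI in the CCl4 library and 0.732 in the healthy library.

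Cells with at least 3 Myh11 UMIs were therefore set side by side at 5000 UMIs per cell without any rule on collagen. There were 9 such cells among 3665 healthy cells (0.246% [0.112, 0.466]) and 83 among 5284 CCl4 cells (1.57% [1.25, 1.94]). All 9 healthy cells lay in cluster 8 and had 1 to 11 UMIs of the 4 collagen and matrix genes (median 3). The 83 CCl4 cells were spread over 7 clusters, had 7 to 317 UMIs of the 4 genes (median 104), and 82 of them were mesenchymal by the rule. The depth of 5000 UMIs left out 1937 healthy and 2030 CCl4 cells. Of the 467 CCl4 droplets of cluster 8, 407 did not reach even 2000 UMIs. Myh11 was found in 18.3% [9.52, 30.4] of the 60 that did. The clusters and collagen counts of the 83 cells therefore hold for deep cells only. The healthy cells had 197 member UMIs per cell and the CCl4 cells 77.2. Per cell, Acta2 was 64.3 UMIs in the healthy and 19.7 in the CCl4 cells, Tagln 46.0 and 28.3, Tpm2 23.7 and 5.77, Myl9 20.6 and 4.18, Myh11 18.2 and 4.92, and Des 7.44 and 2.20. Only Cnn2 was lower in the healthy cells, at 0.778 against 1.73 UMIs. Tagln exceeded Acta2 in 2 of the 9 healthy and 62 of the 83 CCl4 cells. Myh11 chose these cells, and its median was 21 UMIs in the healthy cells but 3, the limit itself, in the CCl4 cells. Since the other members go up with Myh11 UMIs (below), all of these differences are a description. Medians were 68 and 10 UMIs for Acta2, with up to 129 in a CCl4 cell, and 46 and 17 for Tagln.

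Mesenchymal cells were then defined by counts alone, as CCl4 cells with at least 20 UMIs of Col1a1, Col3a1, Dcn and Bgn together. This gave 5180 cells, of which 3470 (67.0%) were mesenchymal-like, 1422 (27.5%) mesothelial-like, 267 unnamed, 16 immune-like and 5 endothelial-like. Markers of mesothelial cells summed to 4370 CPM over these cells, with none of the 12 at 0, against 22017 CPM for the mesenchymal markers. Outside the mesothelial-, immune- and endothelial-like clusters the mesothelial markers summed to 397 CPM. Results are therefore given over all 5180 cells and, for the pairs, the bins and the contractile list, also within the classes. At 5000 UMIs per cell 4595 cells could be used, and 585 shallower cells were left out.

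At this depth Tpm1 was detected in 82.4% [81.3, 83.5] of the mesenchymal cells, Tpm2 in 61.2% [59.8, 62.6], Tagln in 58.6% [57.2, 60.1] and Des in 49.6% [48.2, 51.1]. Acta2 (39.9% [38.5, 41.3]), Myl9 (39.0% [37.6, 40.4]) and Cnn2 (38.0% [36.6, 39.4]) could not be ordered by their intervals. Myh11 was found in 12.8% [11.9, 13.8], Actg2 in 36 cells (0.783%) and Cnn1 in 14 cells (0.305%). UMIs were unevenly spread: the 1% of cells with the most Acta2 (46 cells) held 20.9% of its UMIs, against 12.9% for Tagln and 24.6% for Myh11 in their own top cells. A cell had up to 121 Acta2 and 163 Tagln UMIs. The variance of Acta2 UMIs was 18.9 times their mean, and that of Tagln 18.5 times. For Tpm1 the ratio was 3.09, for Myh11 2.85, for Des 1.75 and for Cnn2 1.39.

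A typical mesenchymal cell showed several members together. No member was detected in 128 cells (2.79%), at least 4 members in 52.9%, at least 5 in 36.2%, and all 10 in 6 cells. Mesenchymal-like and mesothelial-like cells differed here: 52.1% of the former and 2.68% of the latter had 5 or more members, with medians of 5 and 2.

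Co-detection was measured by the odds ratio of finding 1 member in cells with and without another, and a pair was called when the ratio was at least 2 with an interval above 1. All 45 pairs had an odds ratio above 1, 34 were called and none was called in the opposite direction (at most 0.5 with an interval below 1). The median odds ratio was 3.64. For each member the background is the share of all genes, detected in at least 2% of cells, that passed the same rule with it. Actg2 (0.783% of cells) and Cnn1 (0.305%) fall under that limit. The counts of called partners include these genes, and the background does not. The background was 0.359% for Acta2, of whose 9 partners 8 were called, 7.89% for Tagln (7 of 9), 1.89% for Myh11 (8 of 9) and 3.46% for Myl9 (9 of 9). It was 3.2% for Actg2 (9 of 9), 1.72% for Cnn1 (6 of 9), 0.519% for Cnn2 (6 of 9), 3.03% for Tpm1 (6 of 9), 0.737% for Tpm2 (4 of 9) and 3.04% for Des (5 of 9). Cells are not replicates, and all pairs share 1 library and 1 thinning.

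The strongest of the common pairs was transgelin with the myosin light chain. Tagln and Myl9 occurred together in 34.1% of cells, where independence would give 22.9%, with an odds ratio of 10.3 [8.76, 12.1]. Tagln and Myh11 had 7.35, Acta2 and Myl9 3.90, Acta2 and Myh11 3.64 [3.02, 4.39] and Acta2 and Tagln 3.03. Actg2 was mostly found together with the others: all 36 cells with Actg2 also had Acta2, Tagln and Tpm1, 34 had Myl9 and 26 had Myh11. In the separate draw of the cells outside the other classes, 37 of 41 cells with Actg2 had Acta2 (11.7 [4.19, 45.3]), 40 had Tagln and 41 had Tpm1. Over all mesenchymal cells the odds ratios of Actg2 with Acta2, Tagln and Tpm1 have no finite value. Of the finite ratios that of Actg2 and Cnn1 was the highest, 114, and rests on 6 cells. The weakest pairs were Cnn1 with Tpm1 (1.28), Cnn2 with Tpm2 (1.51), Cnn2 with Tpm1 (1.56) and Cnn2 with Des (1.61). Acta2 with Des had 1.86 [1.64, 2.10], below the ratios of Acta2 with Myh11 and Myl9.

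**Figure D3:**
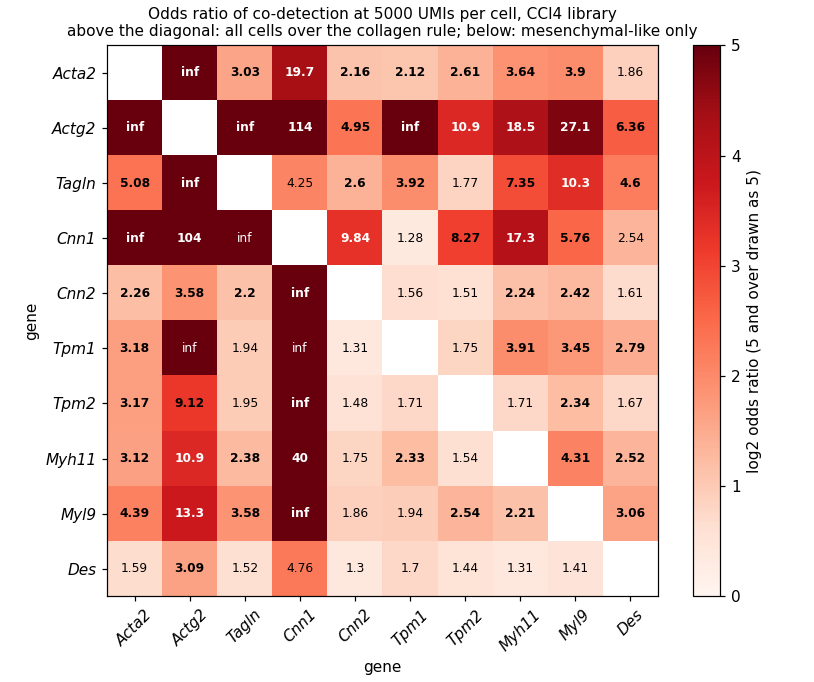
Odds ratios of co-detection of the 45 pairs of members at 5000 UMIs per cell in the CCl4 library, coloured on a log2 scale, above the diagonal over all 4595 mesenchymal cells and below it over the 3045 mesenchymal-like cells. All 45 ratios above the diagonal are over 1, and the finite ones go from 1.28 for Cnn1 with Tpm1 to 114 for Actg2 with Cnn1.

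The ratios differed between the cell classes. Within the 3045 mesenchymal-like cells alone, 25 of 45 pairs were called and the median was 3.09, which is the ratio of Actg2 with Des. Many called pairs rest on few cells, since Actg2 was detected in 34 cells (1.12%) and Cnn1 in 10 (0.328%). Both fall under the 2% limit of the backgrounds. Pairs with neither gene ranged from 1.30 (Cnn2 with Des) to 5.08 (Acta2 with Tagln). Of 9 partners each, Acta2 had 8 called (background 0.506%), Actg2 8 (2.72%), Cnn1, Myh11 and Myl9 6 (1.6%, 0.409% and 0.535%), Tagln 5 (0.788%), Cnn2 and Tpm2 4 (0.282% and 0.71%), Tpm1 2 (0.749%) and Des 1 (0.302%). Acta2 with Tagln was higher there, at 5.08, and Tagln with Myl9 lower, at 3.58. In the 1381 mesothelial-like cells 4 pairs were called (with backgrounds of 0.418% for Acta2, 1.19% for Tagln, 0.788% for Cnn2 and 2.34% for Myl9): Acta2 with Tagln (2.04), Acta2 with Myl9 (2.18), Cnn2 with Myl9 (2.44) and Tagln with Myl9 (4.03). The median was 1.30. In cluster 17 alone 6 pairs were called, these 4 with Tagln and Des (2.77) and Myl9 and Des (2.92), where the backgrounds were 0.657% for Acta2, 1.14% for Tagln, 0.588% for Cnn2, 1.61% for Myl9 and 1.99% for Des. In cluster 20 alone only Acta2 with Tagln (2.35) was called, with backgrounds of 0.864% and 2.32%. Over both clusters Myh11 was found in 5 cells and never together with Tpm2, the 1 pair that passed in the opposite direction (0 [0, 0.934]), with a background of 0.234%. At equal depth Tagln was detected in 82.2% of mesenchymal-like and 9.05% of mesothelial-like cells, Myl9 in 55.0% and 5.87%, Des in 65.5% and 16.2%, and Myh11 in 18.6% and 0.362%. The mesothelial-like share of Des was 5.63% in cluster 17 and 33.3% in cluster 20, and that of Myl9 7.97% and 2.46%. Acta2 (44.3% and 29.9%), Tpm2 (64.0% and 53.8%) and Tpm1 (90.3% and 66.1%) differed less. Of the cells with Acta2, 93.3% of the mesenchymal-like had Tagln, and 13.6% of the mesothelial-like.

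The other members went up with Acta2 in mesenchymal-like cells when these were binned by their Acta2 UMIs. From 1696 cells with 0 Acta2 to 360 cells with 8 or more, the share with Myl9 was 39.7%, 53.6%, 71.7%, 83.5% and 93.9% over the 5 bins. Tagln was already at 73.3% in cells with 0 Acta2 and reached 100% in the top bin. Myh11 went from 11.1% to 45.8%, so that most cells of the top bin still showed no Myh11 at this depth. Tpm2 went from 52.9% to 93.9% and Cnn2 from 35.2% to 73.3%. Des rose less than these and not in every step, with 60.9%, 67.7%, 73.0%, 67.7% and 76.4%. Its odds ratio with Acta2 in these cells was 1.59 [1.36, 1.86], under the limit of 2. In mesothelial-like cells Tagln was 7.13%, 8.43%, 14.9% and 18.5% over the first 4 bins, and Myh11 never exceeded 0.826%. The top bin there held 16 cells, of which 75% had Tagln. In cluster 17 alone the shares were 8.40%, 9.70%, 19.0%, 25% and 77.8%, with 16 and 9 cells in the last 2 bins. Leaving the top bin out, the Tagln share of the pooled mesothelial-like cells stayed at or below 18.5% and that of cluster 17 at or below 25%, where mesenchymal-like cells of the same bin had 97.7%.

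**Figure D4:**
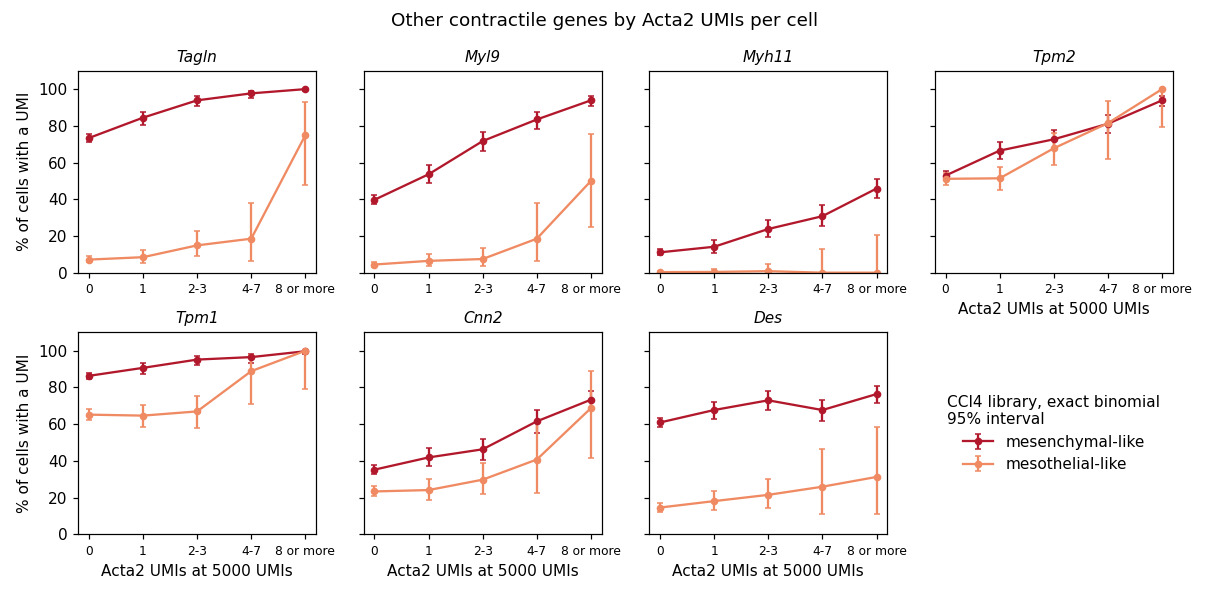
Share of cells with a UMI of each other member (vertical axis, percent, exact binomial 95% intervals) by the number of Acta2 UMIs in the cell at 5000 UMIs, for mesenchymal-like and mesothelial-like cells of the CCl4 library. In mesenchymal-like cells Myl9 goes from 39.7% to 93.9% and Myh11 from 11.1% to 45.8%, while Des stays between 60.9% and 76.4%, and the top bin of mesothelial-like cells holds 16 cells.

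Cells that held several Myh11 UMIs had more of every other member. In the thinning of the mesenchymal cells, a draw apart from that of both libraries above, 88 cells had at least 3 Myh11 UMIs. In them Acta2 averaged 19.2 UMIs, against 5.97 in the 501 cells with 1 or 2 and 1.47 in the 4006 with none. Tagln averaged 27.3, 12.0 and 3.39 UMIs, Tpm1 9.25, 4.32 and 2.35, and Tpm2 5.57, 2.09 and 1.20. Myl9 averaged 4.09, 1.90 and 0.67 UMIs, and Des 2.34, 1.29 and 0.84. In mesenchymal-like cells alone (82, 484 and 2479 cells) Acta2 averaged 17.8, 6.01 and 1.95 UMIs, Tagln 26.4, 12.3 and 5.29, Myl9 3.84, 1.94 and 1.03, and Des 2.28, 1.33 and 1.16. Of these 88 cells 47 lay in cluster 11, 16 in cluster 10 and 15 in cluster 16. All cells here were at 5000 UMIs, so their depth was equal.

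Subclustering of the mesenchymal cells, again without the members, set a small group apart. Over all 5180 cells no subcluster was highest for more than 4 members, against 7.32% of all genes, and those 4 (Actg2, Cnn1, Tpm2 and Myl9) were highest in a subcluster of 178 shallow cells with a median of 1789 UMIs. Acta2 (1173 CPM), Tagln (2205 CPM) and Des (304 CPM) were highest in a subcluster of 521 cells led by Cxcl14. When the mesothelial-, immune- and endothelial-like cells were left out, the other 3737 cells gave 16 subclusters, and all 10 members were highest in 1 of them, where 3.64% of all genes were. This group had 117 cells (3.13% of these cells) with a median of 17271 UMIs, and 67 of them came from cluster 10, 24 from cluster 16 and 17 from cluster 11. Besides members its leading genes were Ankrd1, Cxcl14, Fbxl22 and Notch3. That the members were highest together is a description of the same cells that were clustered.

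In these 117 cells Acta2 was at 4001 CPM [3914, 4089], against 565 in the other mesenchymal cells, and ranged from 0 to 525 UMIs per cell (median 43). Tagln was at 6195 CPM [6087, 6305] against 1263, Tpm1 at 1581 [1527, 1637] against 657, Tpm2 at 1121 [1075, 1168] against 292 and Myl9 at 751 [714, 790] against 233. Myh11 was at 212 CPM [193, 234] against 55.4. The rare members were the most concentrated: Cnn1 at 21.8 CPM [15.8, 29.3] against 0.558, with 62.0% of its UMIs in this group, and Actg2 at 105 CPM [91.8, 121] against 3.02, with 59.3%. Cnn2 (257 against 128 CPM) and Des (456 against 233 CPM) differed least. At 5000 UMIs per cell 93.9% of 114 such cells had Acta2 and 100% had Tagln, but 42.1% had Myh11, 12.3% Actg2 and 4.39% Cnn1, and the other 3084 cells had 42.9%, 80.0%, 16.2%, 0.875% and 0.195%. The members made up 1.47% of the UMIs of the group and 0.343% of those of the other cells, below the 3.98% of the 11 healthy cells. Unlike the healthy cells, the group had as much of Col1a1, Col3a1, Dcn and Bgn (24665 CPM) as the other mesenchymal cells (23563 CPM). The 15 other smooth muscle and pericyte markers summed to 1230 CPM there and 1006 CPM in the other cells, and stellate markers without Des to 4386 and 5303 CPM.

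Of the named classes, only mesothelial-like cells had at least 50 cells in both libraries (235 healthy and 1563 CCl4). Endothelial-like cells did so with the mitochondrial limit of 10%, and are not compared here. The mesothelial-like class lay in different clusters of the libraries, cluster 6 (healthy) and clusters 17 and 20 (CCl4), so cluster and library cannot be told apart. Here 2 of the 10 members were at least 2-fold higher in the CCl4 library with an interval above 1, where 11.5% of all tested genes were, and none was 2-fold lower, where 14.2% were. With doublets kept 5 members were higher. Tpm2 had 94 healthy UMIs (24.4 CPM) and 6102 CCl4 UMIs (211 CPM), a ratio of 8.64 [7.05, 10.7]. Des had 3 UMIs and 1890 UMIs, a ratio of 83.9 [28.7, 407]. Most of the Des UMIs came from 1 of the 2 CCl4 clusters: cluster 20, led by Serpinb2, Enpp2 and Cxcl5, had 138 CPM, and most of its cells fell into the portal fibroblast subclusters, while cluster 17, led by Prg4 and Adra2a, had 11.7. Against cluster 17 alone Des was 15.0-fold [5.05, 73.3] higher, Tpm2 7.92-fold and Myl9 2.33-fold [1.54, 3.67], so that 3 members passed, where 11% of all tested genes did. Acta2 was 1.39 [1.24, 1.55], Myl9 1.75 [1.16, 2.74], Cnn2 0.698 [0.623, 0.783], Tpm1 0.553 [0.526, 0.582] and Tagln 0.519 [0.453, 0.598] times the healthy level. The 2 tropomyosins therefore lay on opposite sides of the healthy level, and Tpm2 per Tpm1 UMI was 0.0505 in healthy and 0.789 in CCl4 mesothelial-like cells. The median log2 ratio of all tested genes was -0.12, and 0.06 with TMM scaling, which left the direction of these ratios as they were. Tagln was the member that turned when cells scored as doublets were kept, from a log2 ratio of -0.95 to 0.69. Myh11 had 1 healthy and 38 CCl4 UMIs (5.06 [0.855, 205]), and Actg2 and Cnn1 had 0 healthy UMIs against 2 and 18.

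**Figure D5:**
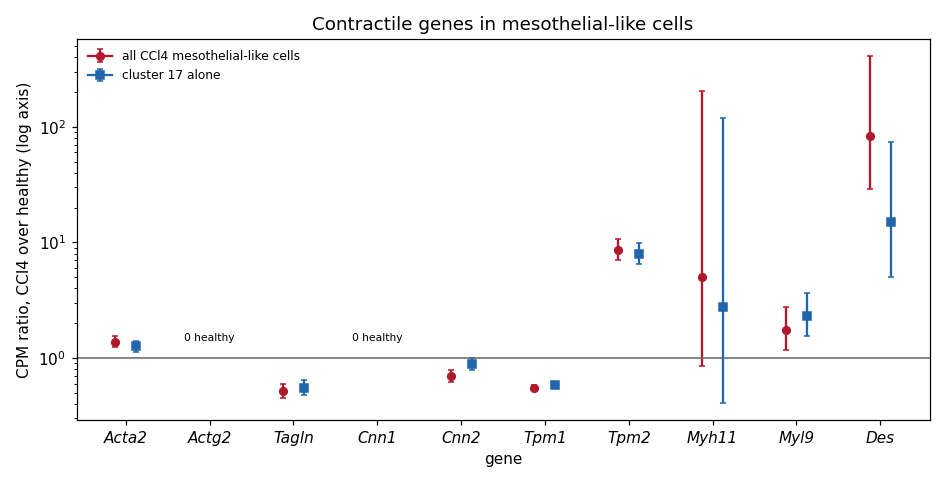
Ratio of CPM, CCl4 over healthy, for each member in mesothelial-like cells on a log axis, with exact conditional binomial 95% intervals, for all CCl4 mesothelial-like cells and for cluster 17 alone. Des (83.9 and 15.0) and Tpm2 (8.64 and 7.92) lie above 2, and Tagln (0.519 and 0.554) and Tpm1 lie below 1.

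The 12 healthy mesenchymal-like cells are under the 50 cells set for a comparison of groups, so the ratios below are a description of few UMIs. They held 85927 UMIs with 2076 of Dcn, 119 of Reln and 53 of Lrat, and none of Ptprc or Pecam1. Acta2, Actg2, Cnn1 and Myh11 were not counted in them. They had 15 Des, 15 Tpm1, 10 Tagln, 10 Tpm2, 7 Cnn2 and 3 Myl9 UMIs. Against the limit of 3 counts over the group, Acta2 was at least 20.5-fold higher in CCl4 mesenchymal-like cells, and Myh11 at least 1.84-fold. Tagln was 13.2-fold [7.17, 27.5] higher, Tpm1 4.12-fold, Tpm2 2.72-fold and Myl9 7.62-fold [2.61, 37.0], while Des (1.42 [0.860, 2.54]) and Cnn2 (1.68 [0.813, 4.17]) had intervals that include 1. Of all tested genes 1.7% were 2-fold higher by this rule and 5.05% lower. Desmin was thus counted in these stellate-marker cells without Acta2.

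Other genes of contraction were taken from a list of 69 genes in 6 groups, of which 67 were measured and 56 detected in at least 2% of mesenchymal cells. With Acta2 6 of the 56 passed the co-detection rule and none in the opposite direction, against 0.359% and 0.708% of all genes. The median odds ratio was 1.27 on the list and 0.969 over all genes. The 6 genes were Cald1 (2.03), the caldesmon of the thin filament, Lmod1 (3.03), a leiomodin that nucleates actin in smooth muscle, the myosin light chain Myl6 (3.14), vimentin Vim (4.42), Nexn (2.09) and Jph2 (2.11). Within mesenchymal-like cells 7 of 55 passed and none in the opposite direction, against 0.506% and 0.321% of all genes. Cald1 (1.94), Nexn (1.84) and Jph2 (1.95) were then under the limit of 2, and Actg1 (2.48), Tpm4 (2.25), Flna (2.35) and Pdlim3 (2.59) joined Lmod1 (2.72), Myl6 (4.26) and Vim (5.08). The next values, of the genes with most UMIs in their groups, are over all mesenchymal cells again. Actb, the non-muscle actin, was found in 99.9% of cells, which leaves little to compare (3.32 [0.371, 157]), and Actg1 had 1.95 [1.55, 2.47]. Among myosin genes Myl12a had 1.46 [1.26, 1.70] and Myh9 1.13 [0.988, 1.29], and among adhesion genes Itga8 had 1.61 [1.42, 1.82] and Csrp2 1.01 [0.897, 1.15]. None of the 7 tested genes of transcriptional control passed. Over all mesenchymal cells Gata6 had 0.869 [0.770, 0.981], Tbx20 1.08 [0.958, 1.22] and Klf4, a repressor of the smooth muscle programme, 0.697 [0.610, 0.795]. Within mesenchymal-like cells they had 0.965 [0.834, 1.12], 0.821 [0.710, 0.951] and 0.833 [0.691, 1.003].

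With Myh11, 11 of the 56 passed and 3 in the opposite direction, against 1.89% and 5.34% of all genes, but within mesenchymal-like cells 4 of 55 passed and none in the opposite direction, against 0.409% and 0.72%. These 4 were Lmod1 (2.33), Flna (2.04), Pdlim3 (2.85) and Mylk (2.09 [1.08, 4.55]). Mylk, the kinase of the myosin light chain, had an odds ratio of 11.6 [6.91, 20.9] with Myh11 and of 1.53 [1.31, 1.79] with Acta2 over all cells. On the same cells Itga8, an integrin of smooth muscle and stellate cells, had 4.11, Lmod1 3.83, Jph2 2.76, Myh9 2.66, Casq2 2.54 and Nexn 2.49. Mrvi1, Flna, Ppp1r14a and Csrp1 lay between 2.03 and 2.20. Over all cells Klf4 (0.489 [0.390, 0.608]), Smtnl2 and Myl7 were on the other side. Within mesenchymal-like cells Klf4 had 0.920 [0.721, 1.17] and Smtnl2 0.721 [0.408, 1.21] with Myh11, and Myl7 was not tested. Myl7 is a leading gene of the mesothelial-like cells in the healthy library. Of the calcium and membrane genes with most UMIs, Itpr1 had 1.29, Ednra 1.49 and Agtr1a 1.20 with Myh11 over all cells. With Acta2 they had 0.888, 1.07 and 0.956. Within mesenchymal-like cells Ednra turned to 0.795 [0.652, 0.968] with Myh11 and had 0.804 [0.691, 0.935] with Acta2. There Itpr1 and Agtr1a had 1.01 each with Myh11, and 0.919 and 0.886 with Acta2.

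The genes most like Acta2 across the 4595 cells were other members. Pearson's r of log2(1 + UMIs) with Acta2 was 0.65 for Tagln, 0.59 for Myl9 and 0.48 for Tpm2, the first 3 of 10590 genes. Tpm1 was 5th with 0.44, Myh11 7th with 0.39, Cnn2 10th with 0.33 and Des 25th with 0.24. Actg2 (0.25) and Cnn1 (0.17) were detected in less than 2% of cells and are not among the ranked genes. Their r would place them 24th and 70th. The nearest genes outside the set were Myl6 (0.45), Fbxl22 (0.39), Actb (0.35), Flna (0.34), Ckb (0.32), Lmod1 (0.32), Nexn (0.31), Lgals1 (0.29), Tpm4 (0.28) and Col4a1 (0.27). For Myh11 the first 4 were Tagln (0.40), Acta2 (0.39), Myl9 (0.35) and Tpm1 (0.30), and the nearest genes outside the set were Lmod1 (0.28), Col4a1 (0.27), Fbxl22 (0.25), Mylk (0.24), Col4a2, Tnc (both 0.23), Flna, Gucy1a1, Itgb1 and Nexn (each 0.22). Without the mesothelial-, immune- and endothelial-like cells several values with Myh11 fell by more than 1.5 times: Mylk to 0.13, Col4a2 to 0.12, Itgb1 to 0.11, Gucy1a1 to 0.089, Tnc to 0.15, Col4a1 to 0.17 and the member Des from 0.18 to 0.089. With Acta2, Col4a1 fell to 0.17, and Tagln (0.70), Myl9 (0.59) and Tpm2 (0.53) stayed high. The cells share 1 library and 1 depth, and these values describe it.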

How the data were processed

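The deposited matrices hold raw UMI counts per gene for called cells only, and the authors did not normalize them. The headers name Cell Ranger 3.1.0 (healthy) and 6.0.1 (CCl4), while the methods describe an in-house pipeline with fastp and featureCounts 1.6.2 and a human build that the mouse gene identifiers contradict. The build of the files is not given in the sources used here. Genes on both lists were matched by Ensembl identifier (30406 genes).

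Cells with at least 500 UMIs, 200 genes and at most 30% mitochondrial UMIs were kept, and Scrublet's highest scores were removed as doublets up to 0.8% per 1000 cells (277 healthy and 487 CCl4 cells). All cells were then clustered jointly, leaving out the members and the contractile list (2000 variable genes, 10 principal components, 20 neighbours, Leiden resolution 1). A cluster was named from at least 3 markers that were 2-fold higher than in all other cells and found in at least 10% of its cells, and a class is called immune-like when its markers are of macrophages, neutrophils or T and NK cells. The study may have named some of these cells otherwise. Des was among the stellate markers used for names of subclusters.

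UMIs were summed per group as CPM with exact Poisson intervals. Shares have Clopper-Pearson intervals, ratios exact conditional binomial intervals, and odds ratios exact conditional intervals. A count of 0 was given a limit of 3 counts. Shares were compared after thinning each cell to 2000 or 5000 UMIs, leaving out shallower cells. Alternatives were other depths, thinning seeds, mesenchymal limits, mitochondrial limits, numbers of components, doublets kept and scalings (TMM in edgeR 4.0.16, R 4.3.3). The steps were checked on simulated counts. The tools were python 3.11.15, scanpy 1.11.5, numpy 2.4.6, scipy 1.17.1 and igraph 0.11.9.

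The members and gene lists were chosen with earlier results of these data known. Named were all members, the 3 genes of each group of the contractile list with most UMIs in mesenchymal cells, and the 10 other genes with the highest r with Acta2 and with Myh11. Further genes of the list are named where they passed the co-detection rule. The result of 1 group of the list is not reported here, though its genes are in the totals. The cells of cluster 8 and the group of 117 mesenchymal cells were described after their values were seen. Promoters are from RefSeq (GRCm38.p6), and the members lie on chromosomes 1 (Des), 2 (Myl9), 4 (Tpm2), 6 (Actg2), 9 (Cnn1, Tagln and Tpm1), 10 (Cnn2), 16 (Myh11) and 19 (Acta2).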

Additional observations from a re-analysis of the deposited data

How the results depend on the processing

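Of 63 recalculated values behind the main counts and shares, 51 stayed within 1.5 times the count or within the interval of the share, and 12 moved. With thinning to 2000 UMIs the share of mesenchymal cells was 26.3% for Acta2 and 6.71% for Myh11, and with 10000 UMIs it was 51.7% and 19.0%, so these shares hold for their depth only. Without mesothelial-like, immune-like and endothelial-like clusters the shares were 44.7% and 17.2%, and in mesenchymal-like clusters only, an alternative chosen after seeing the data, 44.3% and 18.6%. Without those clusters 10 members, not 4, were highest in 1 subcluster, which has other cells. With doublets kept 5 members, not 2, were higher in the CCl4 library in mesothelial-like cells, which then numbered 255 and 1745. In mesenchymal-like clusters only, 4 genes of the contractile list, not 11, were called with Myh11, and in mesothelial-like cells of cluster 20 alone 1 pair of members, not 4, was called (both alternatives chosen after seeing the data). No value changed direction where it had been called. Over the alternatives, called pairs ranged from 25 to 34, members highest in mesenchymal-like cells from 8 to 9, and contractile list genes called with Acta2 from 4 to 8. The limits of 20 UMIs after thinning, the largest mesothelial-like cluster alone, 30 principal components in that class and cells without unnamed clusters were also added after seeing the data. Depth limits Actg2 and Cnn1 most, with 100 and 25 UMIs at 5000 UMIs per cell. No paired analysis was possible because each group has 1 library.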
